A study of Mus musculus with 6 samples.

Results

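Matrix metalloproteinases (MMP), ADAM and ADAMTS proteases, the protease-like ADAMTSL proteins and the tissue inhibitors of metalloproteinases (TIMP) were followed in mouse embryonic fibroblasts. Members were found by symbol: 84 of 52006 named loci carried an Mmp, Adam, Adamts, Adamtsl or Timp name, made up of 23 MMP, 33 ADAM, 19 ADAMTS, 5 ADAMTSL and 4 TIMP genes. Total RNA had been sequenced in 6 libraries; the labels call 3 of them wild type (WT) and 3 Fbxw7 KO, here the knockout. Both groups grew in DMEM with 15% serum (FBS) and 1% nonessential amino acids, with no treatment named, and Fbxw7 encodes the part of a ubiquitin ligase that binds the proteins to be destroyed. The labels gave neither the deleted exons, the way the deletion was made, the number and sex of the embryos, nor the passage of the cells, and did not say that the libraries of a genotype were separate cultures. The p-values therefore measure the spread between these libraries, which may be technical.

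MMPs are zinc enzymes made as inactive precursors, secreted or held at the membrane, that cut collagens and other matrix proteins. ADAMs are membrane proteins, some of which shed growth factors, cytokines and receptors from the cell surface while others lack an active site and act in adhesion. ADAMTS enzymes are secreted and process procollagens or cut proteoglycans, ADAMTSL proteins keep their matrix-binding parts without the protease, and TIMPs block the active sites of most of these enzymes. Fibroblasts are a main source of all these families in connective tissue.

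The deposited estimated fragments per library summed to between 55720129 and 64198455. Fbxw7 itself read 29.5, 28.4 and 30.1 CPM (counts relative to the TMM-scaled library size) in WT against 27.6, 27.4 and 24.1 CPM in the knockout, which did not pass the test (log2 fold change -0.16 ± 0.10 SE, edgeR Benjamini-Hochberg adjusted p = 0.332). Replicate 3 of each genotype stood apart: libraries 1 and 2 of a genotype differed by 6.56 to 7.43 times the sampling noise, and replicate 3 differed from them by 26.8 to 42.6 times. Sex-linked transcripts moved with the labels, with Xist at a mean of 1.47 CPM in WT against 911 CPM in the knockout and Ddx3y at 95.9 and 30.4 CPM, and their part in the results was not tested. The 10 fibroblast markers, led by Col1a1 and Col1a2, summed to 23893 to 31821 CPM in WT and 23560 to 25430 CPM in the knockout. Of these, Lum (log2 fold change 4.08) and Dcn (1.56) rose and S100a4 (-2.04) and Vim (-0.83) fell. Of 8 leukocyte markers, Adgre1 and Tyrobp were at 0 in every library and Ptprc was at most 0.0361 CPM; the list summed to 23.3 to 25.6 CPM in WT against 18.4 to 19.8 CPM in the knockout, most of it Lyz2. On that list Lyz2 (log2 fold change -0.62) and Cd68 (-1.40) fell, while Cd14 and Csf1r were not called; Cd14 read 4.42 to 4.75 CPM in WT and 5.86 to 7.58 CPM in the knockout. Of 6 endothelial markers Tie1 was at 0 and Cdh5 at most 0.0404 CPM, while Kdr and Tek fell, and the list summed to 7.69 to 9.97 CPM in WT against 1.39 to 2.04 CPM in the knockout. The 6 epithelial and 6 skeletal muscle markers summed to at most 0.446 CPM and 0.253 CPM in any library. Neural markers (6 genes) summed to 7.16 to 9.78 CPM in WT against 16.1 to 20.9 CPM in the knockout, and cartilage markers (5 genes) to 36.4 to 53.6 CPM and 22.8 to 31.0 CPM; the part of these shifts in the results was not tested. In bulk RNA, fewer cells of a type and less RNA per cell cannot be told apart.

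Of the 84 genes, 57 passed the filter on low counts and were tested, and 27 did not, none of them above 0.485 CPM in any library. Those 27 held 17 ADAM genes, most of them known from testis, and 8 ADAM genes had no fragment in any library (Adam6a, Adam6b, Adam24, Adam25, Adam26a, Adam26b, Adam29 and the locus shared by Adam34 and Gm35629). At an edgeR adjusted p under 0.05, 8 of the 57 tested genes were higher and 11 lower in the knockout, 33.3% of them, where 16.1% of all 16787 tested genes were called. By direction, 8.03% of all tested genes were called higher and 8.08% lower. The knockout and WT ranges did not overlap for 28 of the 57 (49.1%), against 37.7% of all tested genes. The median size of the log2 fold change, without sign, was 0.53 for the 57 and 0.26 for all tested genes. Mmp1b and Timp4 passed the filter through the knockout libraries alone, since no WT library reached its level of 0.168 CPM. Mmp12 had 1 WT library and 3 knockout libraries above it, so its passing also rested on the knockout. Adam21 and Adamts17 passed with fewer than all WT libraries above it. Mmp1b and Mmp12 are among the 8 genes called higher. The 8 and the 33.3% include both, and the 28 and the 49.1% include both and Timp4. Having passed through the group where they are high, these genes are no support for those numbers.

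**Figure D1:**
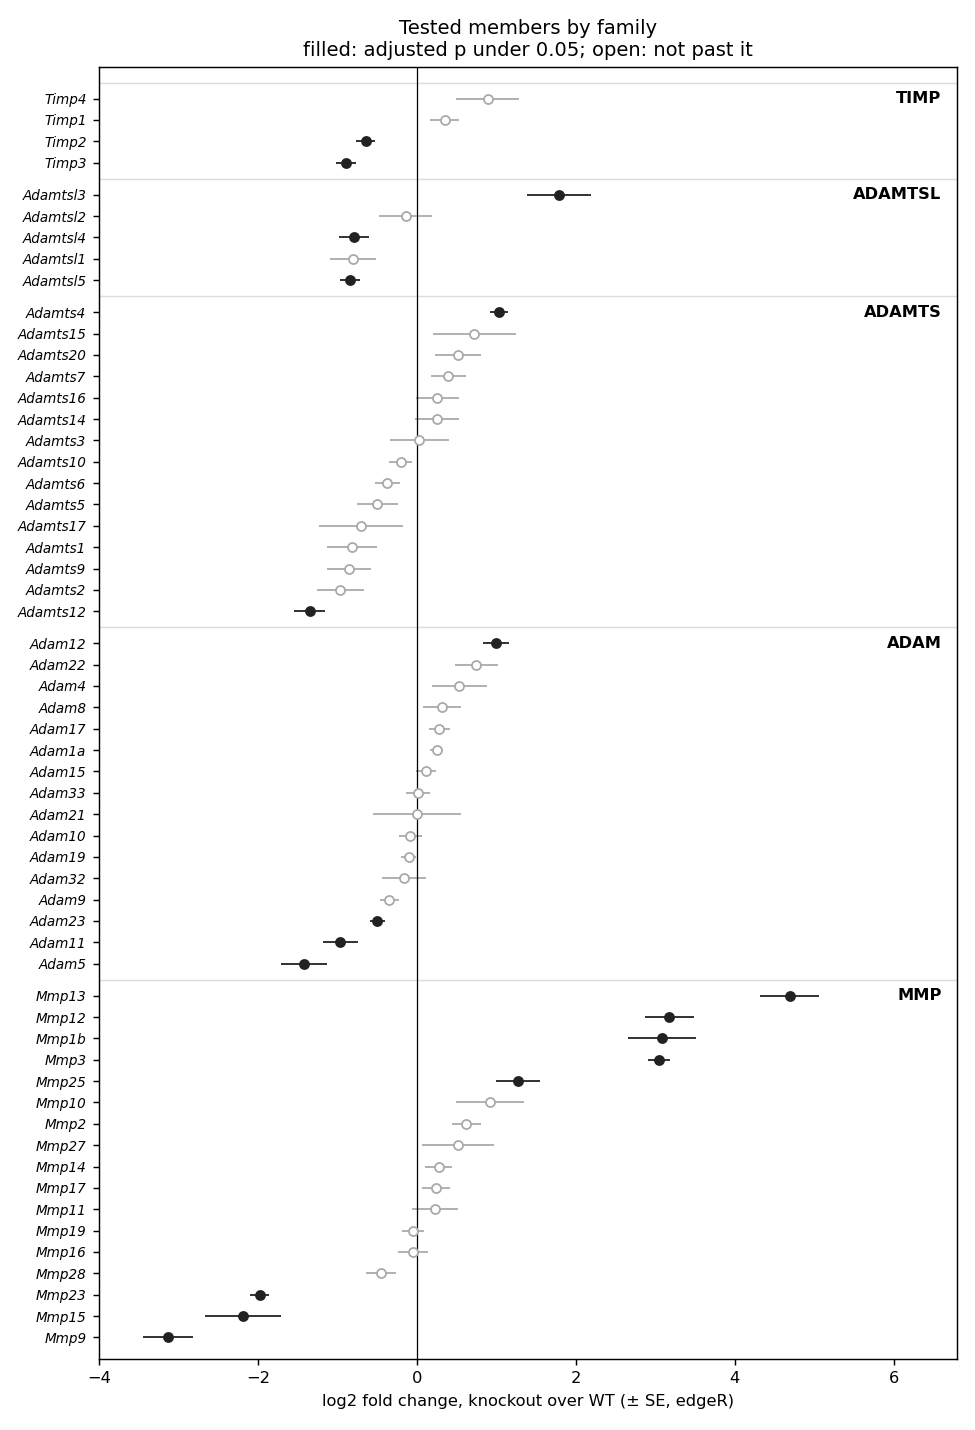
Log2 fold change (knockout over WT) of each of the 57 tested genes, grouped by family, with the standard error as a bar; filled points passed an adjusted p of 0.05 and open points did not. MMP genes spread widest, from Mmp9 at -3.13 to Mmp13 at 4.69, while no ADAM gene lay outside -1.42 to 0.99.

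By family, 5 of 17 tested MMP genes were higher (Mmp1b and Mmp12 among them) and 3 lower, 47.1% in all. That share includes Mmp1b and Mmp12, whose calls are no support for it. Of 16 ADAM genes 1 was higher and 3 lower (25%), and of 15 ADAMTS genes 1 was higher and 1 lower (13.3%). Of 5 ADAMTSL genes 1 was higher and 2 lower (60%), and 2 of 4 TIMP genes were lower (50%). Over all tested genes 16.1% were called. The ADAMTS share lay under that, and ADAMTS ranges were apart in 33.3% of genes against 37.7% of all tested genes. Their calls are therefore not read as a result about that family. All 8 called MMP genes changed at least 2-fold, with Mmp1b and Mmp12 counted. So did Adam5, Adamts4, Adamts12 and Adamtsl3 among the other 11 called genes. Of all tested genes, 7.73% were called and changed that much.

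Mmp13 and Mmp3, called higher and above the filter in every library of both genotypes, lie in the same block of MMP genes. On chromosome 9 (mm10), 10 MMP genes lie within 427 kb, from 7272514 to 7699585, in the order Mmp13, Mmp12, Mmp1b, Mmp3, Mmp1a, Mmp10, Mmp8, Mmp27, Mmp20 and Mmp7. The 6 of them that were tested had log2 fold changes above 0. By edgeR 4, Mmp1b and Mmp12 among them, were called higher and none was called lower (no log2 fold change was below 0). Mmp1b and Mmp12 passed the filter through their knockout libraries, so their direction is no support for these counts, which include them. Upstream stretches of 6 of these genes are printed because called and uncalled genes of the block hold the same short run of bases. They are the 120 bases before the RefSeq start, 5′ to 3′ on the gene's strand, from RefSeq (GRCm38.p6): chr9:7272394-7272513 (plus) for Mmp13, chr9:7347254-7347373 (plus) for Mmp12, chr9:7388027-7388146 (minus) for Mmp1b, chr9:7445702-7445821 (plus) for Mmp3, chr9:7464021-7464140 (plus) for Mmp1a and chr9:7502222-7502341 (plus) for Mmp10. Mmp12 has 2 RefSeq starts, and the stretch before the downstream one is printed; the 120 bases before the upstream one, chr9:7344277-7344396, do not hold the run described next. Capitals mark TGACTCA or its reverse complement TGAGTCA, the letters bound by AP-1 (dimers of JUN and FOS proteins).
Mmp13: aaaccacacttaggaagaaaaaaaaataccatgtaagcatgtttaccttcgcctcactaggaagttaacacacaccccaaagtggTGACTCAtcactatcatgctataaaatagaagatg
Mmp12: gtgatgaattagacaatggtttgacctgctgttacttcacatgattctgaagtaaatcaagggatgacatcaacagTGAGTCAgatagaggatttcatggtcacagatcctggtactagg
Mmp1b: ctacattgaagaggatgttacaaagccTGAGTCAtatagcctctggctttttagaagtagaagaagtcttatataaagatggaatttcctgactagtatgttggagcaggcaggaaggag
Mmp3: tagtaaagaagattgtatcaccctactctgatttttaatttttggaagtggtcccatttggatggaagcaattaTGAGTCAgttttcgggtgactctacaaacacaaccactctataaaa
Mmp1a: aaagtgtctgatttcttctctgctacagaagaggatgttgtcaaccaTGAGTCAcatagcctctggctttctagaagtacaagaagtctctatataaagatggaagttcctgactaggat
Mmp10: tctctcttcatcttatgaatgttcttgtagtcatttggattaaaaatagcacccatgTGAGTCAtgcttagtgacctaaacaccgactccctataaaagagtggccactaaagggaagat

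The run lay at positions -35 to -29 from the RefSeq start in Mmp13, -44 to -38 in Mmp12, -93 to -87 in Mmp1b, -46 to -40 in Mmp3, -73 to -67 in Mmp1a and -63 to -57 in Mmp10. It was searched on both strands over 250 bases before to 50 bases after each RefSeq start, and 7 of the 10 genes held it, Mmp7 being the seventh. Across all 32851 such windows 5.2% held it. Outside this block, 43 of the other genes followed here had a window, and Adam19, Adam1b and Adam29 held the run. The run does not separate called from uncalled genes: Mmp10 was not called, and Mmp1a and Mmp7 were under the count filter. These matches are descriptions of letters, not of binding.

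Mmp13 encodes collagenase 3, which cuts fibrillar collagen. It read 0.748, 0.979 and 0.651 CPM in WT replicates 1, 2 and 3 and 15.7, 14.2 and 31.5 CPM in the knockout replicates. All knockout libraries lay above all WT libraries, with knockout replicate 3 the highest. The log2 fold change was 4.69 ± 0.37 (SE; adjusted p = 0.000383 in edgeR).

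Mmp1b (chromosome 9, 7368239 to 7388047, minus strand) is a rodent relative of interstitial collagenase. Its levels were 0.0899, 0.0417 and 0.126 CPM in WT against 0.773, 0.556 and 0.969 CPM in the knockout, low throughout but without overlap (log2 fold change 3.09 ± 0.43; edgeR adjusted p = 0.00355, and 0.000354 with no count filter). Its paralog Mmp1a had no fragment in WT and at most 0.0269 CPM in the knockout. Mmp8, the neutrophil collagenase gene, read 0, 0 and 0.0361 CPM in WT against 0.0879, 0.387 and 0.485 CPM in the knockout, under the filter.

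Mmp3 (7445822 to 7455975, plus strand) encodes stromelysin 1, which cuts proteoglycans and activates other MMP precursors. It was the most abundant gene of the block per length, at 16.1 ± 2.38 FPKM (fragments scaled by transcript length and library size; SD, n = 3) in WT and 128 ± 9.79 FPKM in the knockout. In CPM it read 30.3, 22.5 and 28.9 in WT and 206, 225 and 242 in the knockout, a log2 fold change of 3.04 ± 0.14 (edgeR adjusted p = 3.23e-05). Mmp10, which encodes stromelysin 2, read 2.0, 2.02 and 3.34 CPM in WT against 3.04, 2.91 and 7.98 CPM in the knockout. Its ranges overlapped and it was not called (0.92 ± 0.43; edgeR adjusted p = 0.187).

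Mmp12 (7344381 to 7369499, plus strand) encodes the elastase best known from macrophages. It read 0.165, 0.187 and 0.145 CPM in WT against 1.65, 1.78 and 1.1 CPM in the knockout (log2 fold change 3.17 ± 0.31; edgeR adjusted p = 0.000835). The part of the leukocyte markers given above in this result was not tested. Mmp12 and Mmp1b face each other and share 157 exonic bases on opposite strands, 10.8% of the exonic bases of Mmp1b; whether reads were counted by strand is not stated, so those reads cannot be told apart. Mmp27 (0.426 ± 0.168 CPM in WT against 0.609 ± 0.324 in the knockout; SD, n = 3) was not called. Mmp20, the enamel protease gene, stayed at or under 0.0181 CPM and Mmp7, the matrilysin gene, at or under 0.202 CPM.

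**Figure D2:**
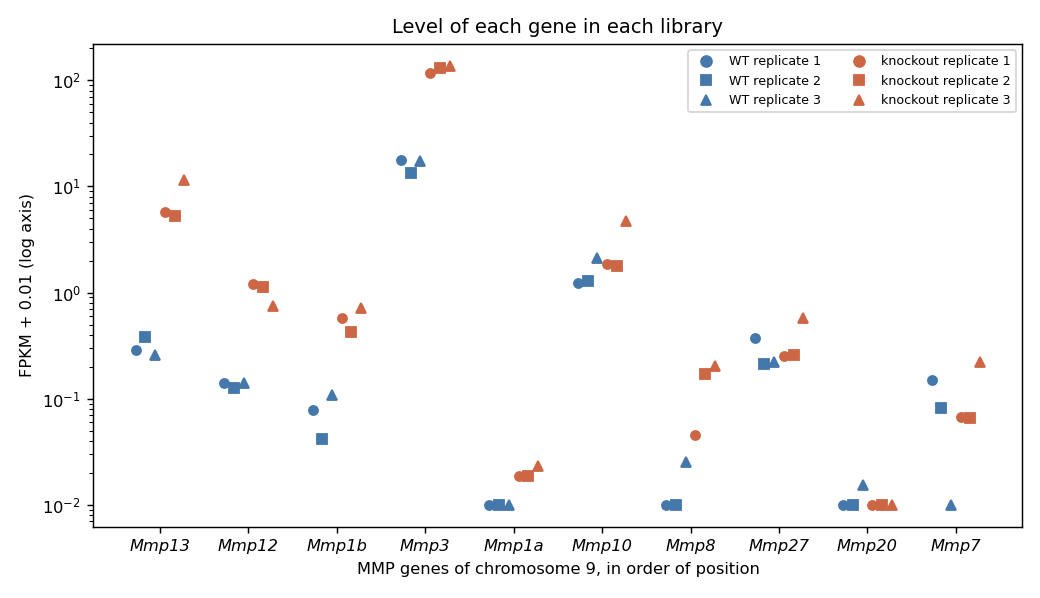
FPKM + 0.01 on a log axis for the 10 MMP genes of chromosome 9 in order of position; each point is 1 library, blue WT and orange knockout, with circles, squares and triangles for replicates 1, 2 and 3. Points at the bottom line are listed at 0 FPKM; the knockout points of Mmp13, Mmp12, Mmp1b and Mmp3 stand clear of the WT points.

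The calls of Mmp13, Mmp12, Mmp3 and Mmp1b held under every alternative that tested them, including each library left out. Summed over the 10 genes, the block gave 15.4 to 20.2 FPKM in the WT libraries and 127 to 155 FPKM in the knockout libraries.

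Of the gelatinases, which cut denatured collagen and basement membrane collagen, Mmp9 fell and Mmp2 was not called. Mmp9 (chromosome 2, 164940780 to 164955850, plus strand) read 131, 154 and 282 CPM in WT against 22.8, 25.0 and 16.7 CPM in the knockout. The WT libraries all lay far above the knockout libraries, and WT replicate 3 was the highest of all. The log2 fold change was -3.13 ± 0.31 (edgeR adjusted p = 0.000952), and the knockout mean was 11.4% of the WT mean. Mmp9 is also made by leukocytes. Of their listed markers Lyz2 and Cd68 fell, Cd14 and Csf1r were not called, and the rest were under the count filter. The part of leukocytes in the Mmp9 result was not tested.

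Mmp2 (chromosome 8, 92827291 to 92853420, plus strand), the gelatinase that fibroblasts make constitutively, read 791, 849 and 604 CPM in WT against 1238, 1302 and 915 CPM in the knockout. The ranges did not overlap, but the test was not passed (log2 fold change 0.62 ± 0.18, 95% interval 0.21 to 1.04, edgeR adjusted p = 0.053). Replicate 3 was the lowest of its genotype on both sides, and without knockout replicate 3 the adjusted p was 0.0146. Scaled by library size only, it was 0.027.

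Of 5 tested membrane-type MMPs, 1 rose, 1 fell and 3 were not called. Mmp14 (chromosome 14, 54431612 to 54445364, plus strand), which cuts collagen at the cell surface and activates the Mmp2 precursor, was the most abundant MMP per length at 401 ± 65.9 FPKM in WT and 485 ± 45.1 FPKM in the knockout (SD, n = 3). Its CPM of 1034, 1150 and 806 in WT and 1298, 1313 and 1001 in the knockout overlapped, with an interval of -0.12 to 0.66 for the log2 fold change (0.27 ± 0.17; edgeR adjusted p = 0.314). Mmp16 (chromosome 4, 17852893 to 18119145) was at 4.91 ± 0.131 FPKM in WT and 4.91 ± 0.589 FPKM in the knockout. In CPM it read 11.1, 12.1 and 9.07 in WT and 9.09, 8.94 and 13.1 in the knockout, with overlap (-0.05 ± 0.19; interval -0.50 to 0.39).

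Mmp17 (chromosome 5, 129584169 to 129611099), whose product is held by a lipid anchor, was at 0.744 ± 0.146 FPKM in WT and 0.757 ± 0.0929 FPKM in the knockout (SD, n = 3; log2 fold change of CPM 0.24 ± 0.18, interval -0.17 to 0.64). Both called genes were rare. Mmp15 (chromosome 8, 95352268 to 95375080) fell from 2.24, 2.5 and 3.74 CPM in WT to 0.633, 0.993 and 0.229 CPM in the knockout (log2 fold change -2.19 ± 0.48; edgeR adjusted p = 0.0204). Mmp25 (chromosome 17, 23628311 to 23645277), whose product has the same kind of anchor, rose from 0.589, 0.75 and 0.795 CPM to 2.04, 1.9 and 1.23 CPM (1.27 ± 0.27; edgeR adjusted p = 0.0198). Neither pair of ranges overlapped. The Mmp15 call was lost without knockout replicate 1 (adjusted p = 0.0809) or WT replicate 2 (0.0579), and that of Mmp25 when either of WT replicates 1 (0.081) and 2 (0.0697) or of knockout replicates 1 (0.087) and 2 (0.0718) was removed.

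Of the remaining MMPs, Mmp23 (chromosome 4, 155650655 to 155653384, minus strand), a membrane-bound enzyme with an unusual domain plan, fell the most steadily. It read 62.7, 68.5 and 64.7 CPM in WT against 17.0, 18.4 and 14.2 CPM in the knockout, a log2 fold change of -1.98 ± 0.12 (edgeR adjusted p = 0.000116). Per length it had been among the more abundant MMPs of WT cells, at 61.9 ± 3.49 FPKM against 59.6 ± 26.8 FPKM for Mmp9 (SD, n = 3). Mmp19 (chromosome 10, 128790910 to 128800824) differed little, at 45.3 ± 3.74 FPKM in WT and 41.7 ± 5.95 FPKM in the knockout. Its CPM were 151, 149 and 129 in WT and 124, 126 and 165 in the knockout, with overlap (-0.05 ± 0.13; interval -0.36 to 0.26). It shares 22.3% of its exonic bases with Tmem198b on the opposite strand. Mmp11 (chromosome 10, 75923222 to 75936496), a stromelysin by name that is activated inside the cell by furin, read 182, 196 and 93.1 CPM in WT against 214, 201 and 136 CPM in the knockout. Its spread was set by replicate 3 in both genotypes and it was not called (0.23 ± 0.29; edgeR adjusted p = 0.633).

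Timp2 and Timp3, the abundant inhibitors here, fell. Timp2 (chromosome 11, 118301069 to 118355740, minus strand), which also helps Mmp14 to activate the Mmp2 precursor, read 2254, 2343 and 2368 CPM in WT against 1521, 1625 and 1312 CPM in the knockout (log2 fold change -0.64 ± 0.12; edgeR adjusted p = 0.011). Timp3 (chromosome 10, 86300372 to 86349506, plus strand), which binds to the matrix and also inhibits ADAM and ADAMTS enzymes, read 1700.3, 1648 and 1719 CPM in WT against 1022, 938 and 771 CPM in the knockout (-0.89 ± 0.13; edgeR adjusted p = 0.00425). For both genes every knockout value was under every WT value. The Timp2 call was lost without knockout replicate 1 (adjusted p = 0.0561). With replicates 1 and 2 summed, neither call held (edgeR adjusted p = 0.139 for Timp2 and 0.0713 for Timp3). Timp3 shares 21.3% of its exonic bases with Syn3 on the opposite strand, a neuronal gene within which it lies.

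Timp1 (chromosome X, 20870166 to 20874735, plus strand), the inducible inhibitor, read 66.9, 62.2 and 102 CPM in WT against 96.8, 95.7 and 101 CPM in the knockout. WT replicate 3 reached the knockout level and the test was not passed (0.35 ± 0.18, interval -0.07 to 0.77; edgeR adjusted p = 0.237). Without WT replicate 3 the log2 fold change was 0.60 (adjusted p = 0.00567). Timp4, an inhibitor of restricted expression, was near absence at 0.127, 0.104 and 0.126 CPM in WT against 0.299, 0.168 and 0.215 CPM in the knockout (edgeR adjusted p = 0.169).

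Per length, Timp2 made up 65.9% to 67.9% of summed TIMP FPKM in WT and 63.5% to 66.6% in the knockout. The share of Timp1 was 7.11% to 10.5% in WT and 14.5% to 16.1% in the knockout, and that of Timp3 was 23.7% to 25.1% and 17.3% to 21.4%. Summed TIMP FPKM was 1376, 1342 and 1507 in WT and 944, 984 and 890.3 in the knockout. Summed MMP FPKM was 938, 1009 and 794 in WT and 1202, 1234 and 1031 in the knockout. The ratio of MMP to TIMP sums was thus 0.682, 0.752 and 0.527 in WT and 1.27, 1.25 and 1.16 in the knockout. The ranges of all 3 quantities were apart, and within each genotype replicate 3 had the lowest ratio. These sums are of transcripts and are led by few genes: Mmp14 and Mmp2 made up 66.2% to 72.4% of the MMP sum in WT and 71.4% to 75.5% in the knockout. Mmp3 went from 1.32% to 2.19% of it in WT to 9.77% to 13.2% in the knockout, and Mmp9 from 4.28% to 11.4% down to 0.487% to 0.623%. Summed ADAM FPKM was 389 to 408 in WT and 360.0 to 380.2 in the knockout, summed ADAMTS FPKM was 163 to 193 and 138 to 145, and summed ADAMTSL FPKM was 46.8 to 55.9 and 26.4 to 32.9.

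**Figure D3:**
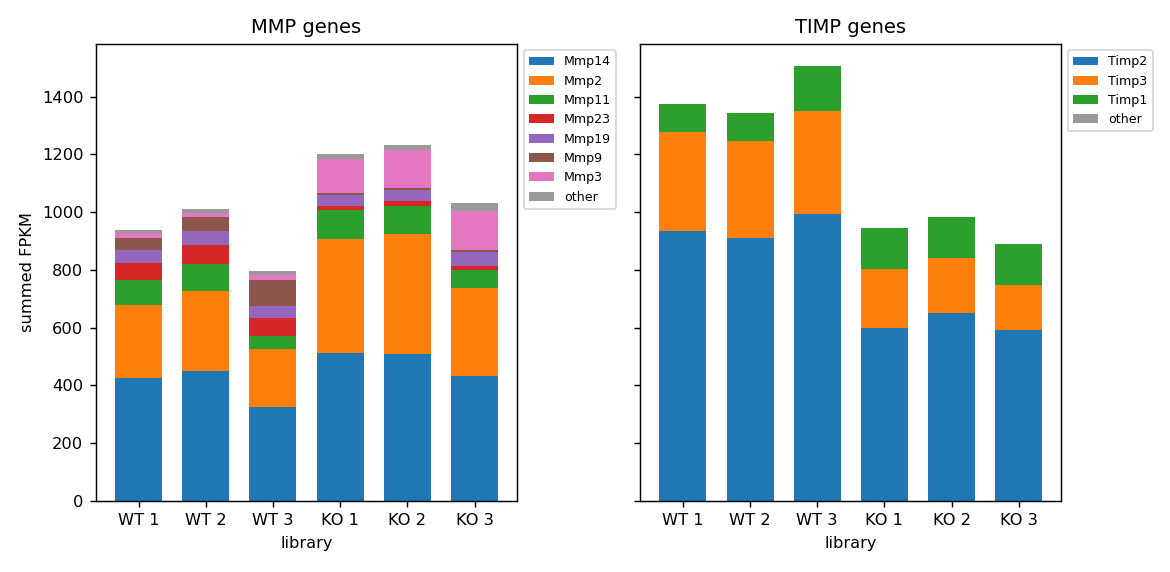
Summed FPKM of MMP genes (left) and TIMP genes (right) in each library, stacked by gene from a baseline of 0; KO is the knockout. The WT libraries show 794 to 1009 FPKM of MMP under 1342 to 1507 FPKM of TIMP, and the knockout libraries 1031 to 1234 over 890.3 to 984.

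Adam9, Adam10 and Adam17, which encode ADAMs that release membrane proteins, were not called in edgeR. Adam9 (chromosome 8, 24949611 to 25016927) was the most abundant ADAM per length, at 126 ± 18.1 FPKM in WT and 96.5 ± 4.96 FPKM in the knockout (SD, n = 3). Its CPM were 467, 479 and 588 in WT and 409, 375 and 420.1 in the knockout, without overlap but not past the test (-0.35 ± 0.12; edgeR adjusted p = 0.0902); the Wald test of DESeq2 called it lower (adjusted p = 0.0425). Adam10 (chromosome 9, 70678997 to 70780229), the main sheddase of Notch receptors and cadherins, was at 49.3 ± 2.39 FPKM in WT and 44.7 ± 6.93 FPKM in the knockout. It read 230.1, 230.3 and 205 CPM in WT against 198, 175 and 255 CPM in the knockout, where replicate 3 was the highest library of all (-0.08 ± 0.15; interval -0.42 to 0.25). Adam17 (chromosome 12, 21323509 to 21373632), which releases TNF and EGF receptor ligands, read 112 ± 17.7 CPM in WT against 136 ± 10.9 CPM in the knockout (SD, n = 3; 0.28 ± 0.13; interval -0.03 to 0.59; edgeR adjusted p = 0.197). Intervals for Adam15 (-0.17 to 0.41), Adam19 (-0.32 to 0.11) and Adam33 (-0.34 to 0.37) all spanned 0. Adam15 shares 20.6% of its exonic bases with 4731419I09Rik on the opposite strand.

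Adam12 (chromosome 7, 133883199 to 134232146, minus strand), an active ADAM of mesenchymal cells also called meltrin alpha, was the ADAM that rose. It read 52.9, 59.2 and 48.7 CPM in WT against 118, 121 and 81.4 CPM in the knockout, without overlap (log2 fold change 0.99 ± 0.16; edgeR adjusted p = 0.00682). On the FPKM scale with limma it did not pass (0.75 on the log2(FPKM + 1) scale, adjusted p = 0.09). With replicates 1 and 2 summed its edgeR adjusted p was 0.0872.

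The ADAMs that fell included 2 without an active protease site, which serve as receptors for LGI proteins in neurons. Adam23 (chromosome 1, 63445891 to 63596276) was common, at 168, 182 and 157 CPM in WT against 119, 126 and 114 CPM in the knockout (-0.50 ± 0.09; edgeR adjusted p = 0.0118). Adam11 (chromosome 11, 102761439 to 102780262) was rare, at 2.74, 2.73 and 1.95 CPM and 1.32, 1.33 and 1.14 CPM (-0.96 ± 0.22; edgeR adjusted p = 0.0229). Adam22, another of that kind, read 29.7, 32.2 and 14.7 CPM in WT against 43.5, 37.0 and 48.0 CPM in the knockout and was not called (0.75 ± 0.27; edgeR adjusted p = 0.103). Adam5 (chromosome 8, 24727093 to 24824369), a gene known from testis, fell from 4.04, 4.35 and 4.28 CPM to 1.07, 1.31 and 2.32 CPM (-1.42 ± 0.29; edgeR adjusted p = 0.0158).

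The calls of Adam23, Adam11 and Adam5 held without replicate 3 of either genotype, and that of Adam23 without knockout replicate 2 (adjusted p = 0.0309), but not without the other first or second replicates. With WT replicate 1 removed the adjusted p was 0.0509 for Adam23, 0.0927 for Adam11 and 0.0521 for Adam5, and with WT replicate 2 removed it was 0.0523, 0.0915 and 0.0589. Removing knockout replicate 1 gave 0.0609, 0.0798 and 0.0539, and removing knockout replicate 2 gave 0.0672 for Adam11 and 0.0614 for Adam5. Adam1a shares its locus with the kinase gene Mapkapk5, so its value (34.1 ± 0.336 CPM in WT against 40.5 ± 0.947 in the knockout; SD, n = 3) cannot be given to either gene.

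Among ADAMTS enzymes that cut proteoglycans such as aggrecan and versican, Adamts4 rose. Adamts4 (chromosome 1, 171250421 to 171260637, plus strand) read 35.2, 40.2 and 32.5 CPM in WT against 65.7, 74.9 and 79.9 CPM in the knockout (log2 fold change 1.03 ± 0.12; edgeR adjusted p = 0.00167). The deposited status of its estimate was FAIL in knockout replicates 2 and 3; knockout replicate 1, with status OK, also lay above all WT libraries. The call held under every alternative run. Adamts1 (chromosome 16, 85793827 to 85803113), the most abundant of the group at 37.3 ± 14.5 FPKM in WT (SD, n = 3), read 138, 149 and 262 CPM in WT against 83.0, 79.5 and 149 CPM in the knockout. Replicate 3 was the highest on both sides, and the gene was not called (-0.82 ± 0.32, edgeR adjusted p = 0.122). The Wald test of DESeq2 called Adamts1 lower (adjusted p = 0.0347), as did edgeR with the replicate number as a block (adjusted p = 0.00672). Adamts9 (chromosome 6, 92772699 to 92943492) read 96.6, 96.8 and 77.9 CPM in WT against 60.9, 61.4 and 27.9 CPM in the knockout, without overlap, and was not called either (-0.85 ± 0.28; edgeR adjusted p = 0.0779), nor was Adamts5 (-0.50 ± 0.26; edgeR adjusted p = 0.233).

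Of the ADAMTS enzymes that cut cartilage oligomeric matrix protein, Adamts12 was called and Adamts7 was not. Adamts12 (chromosome 15, 11064790 to 11349231, plus strand) fell from 44.3, 45.3 and 59.7 CPM to 18.9, 15.2 and 24.5 CPM (-1.35 ± 0.20; edgeR adjusted p = 0.00438), under every alternative run. Adamts7 (chromosome 9, 90163069 to 90208071), its closest relative, read 93.6, 107 and 57.5 CPM in WT against 121, 125 and 93.7 CPM in the knockout and was not called (0.40 ± 0.22; edgeR adjusted p = 0.274).

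None of the 3 procollagen-processing ADAMTS genes, which trim the amino-terminal propeptide of fibrillar collagens, passed the test in edgeR, at an unadjusted p under 0.05 only Adamts2 did, and by the Wald test of DESeq2 Adamts2 was called (adjusted p = 0.00502). Adamts2 (chromosome 11, 50602084 to 50807573) read 261, 288 and 119 CPM in WT against 115, 120 and 108 CPM in the knockout. WT replicate 3 lay at the knockout level, and the edgeR adjusted p was 0.0605 with all libraries (-0.96 ± 0.29) and 0.00051 without WT replicate 3 (-1.27). Adamts14 (chromosome 10, 61197112 to 61273438) read 14.6, 16.5 and 10.1 CPM in WT against 18.8, 19.9 and 10.4 CPM in the knockout, and Adamts3 was at 2.61 ± 0.278 and 2.67 ± 1.34 CPM (SD, n = 3). Of the other ADAMTS genes, Adamts10 (chromosome 17, 33524204 to 33553782), linked to fibrillin, was at 31.3 ± 2.47 FPKM in WT and 26.2 ± 4.96 FPKM in the knockout. In CPM it read 96.5, 113 and 82.1 in WT and 86.7, 93.7 and 72.6 in the knockout, with overlap (interval -0.54 to 0.13). Adamts6 (chromosome 13, 104287835 to 104496695), its paralog, was at 12.5 ± 0.698 and 9.64 ± 1.86 FPKM. It read 90.4, 93.4 and 78.4 CPM in WT against 64.8, 54.8 and 82.9 CPM in the knockout and was called, among the alternatives run, only without knockout replicate 3 or without replicate 3 of both genotypes (-0.55, adjusted p = 0.0184, and -0.62, adjusted p = 3.34e-05).

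The ADAMTSL genes, whose products bind fibrillin microfibrils, differed in both directions. Adamtsl5 (chromosome 10, 80339110 to 80348412, minus strand), the most abundant at 40.5 ± 3.88 FPKM in WT, fell from 78.5, 88.8 and 81.6 CPM to 49.5, 51.2 and 38.5 CPM (-0.84 ± 0.13; edgeR adjusted p = 0.00493). Adamtsl4 (chromosome 3, 95676201 to 95687917) fell from 18.9, 22.7 and 16.9 CPM to 12.6, 12.7 and 8.52 CPM (-0.79 ± 0.19; edgeR adjusted p = 0.0283). Adamtsl3 (chromosome 7, 82335694 to 82614450) rose from 3.42, 3.5 and 6.25 CPM to 11.1, 9.72 and 24.6 CPM, with replicate 3 the highest in each genotype (1.79 ± 0.40; edgeR adjusted p = 0.0227). The Adamtsl5 call was lost with replicates 1 and 2 summed (edgeR adjusted p = 0.0598). The Adamtsl4 call was lost when either of WT replicates 1 (adjusted p = 0.0804) and 2 (0.104) or of knockout replicates 1 (0.064) and 2 (0.0532) was removed. The Adamtsl3 call was lost without WT replicate 1 (0.0947) or WT replicate 2 (0.0944), and with no count filter (edgeR adjusted p = 0.0988). With replicates 1 and 2 summed neither call held in edgeR. With limma neither gene passed, at an adjusted p of 0.115 for Adamtsl4 and 0.0796 for Adamtsl3 on log2(FPKM + 1). Adamtsl1 read 32.9, 38.6 and 16.2 CPM in WT against 15.1, 16.6 and 18.5 CPM in the knockout and was not called (edgeR adjusted p = 0.099).

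Replicate 3 recurs in these values. Among the 46 tested genes with a mean of at least 1 CPM, 12 had WT replicate 3 at least 1.5-fold away from both other WT libraries and 11 had knockout replicate 3 that far from both other knockout libraries. The same count was 1 for knockout replicate 2 (Mmp15), and no gene met it for WT replicate 1, WT replicate 2 or knockout replicate 1. With replicate 3 of both genotypes left out, 17 of 57 tested genes were higher and 20 lower (64.9%, where 41.3% of all tested genes were called). They included all 8 higher and 11 lower genes called with every library. That fit holds only libraries 1 and 2, which lay close within each genotype (6.56 to 7.43 times the sampling noise), so it cannot show that these calls hold. With replicates 1 and 2 summed, which leaves fewer samples, edgeR called 5 genes higher and 3 lower. Those higher were Mmp13, Mmp12, Mmp3, Mmp1b and Adamts4, and those lower were Mmp9, Mmp23 and Adamts12.

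**Figure D4:**
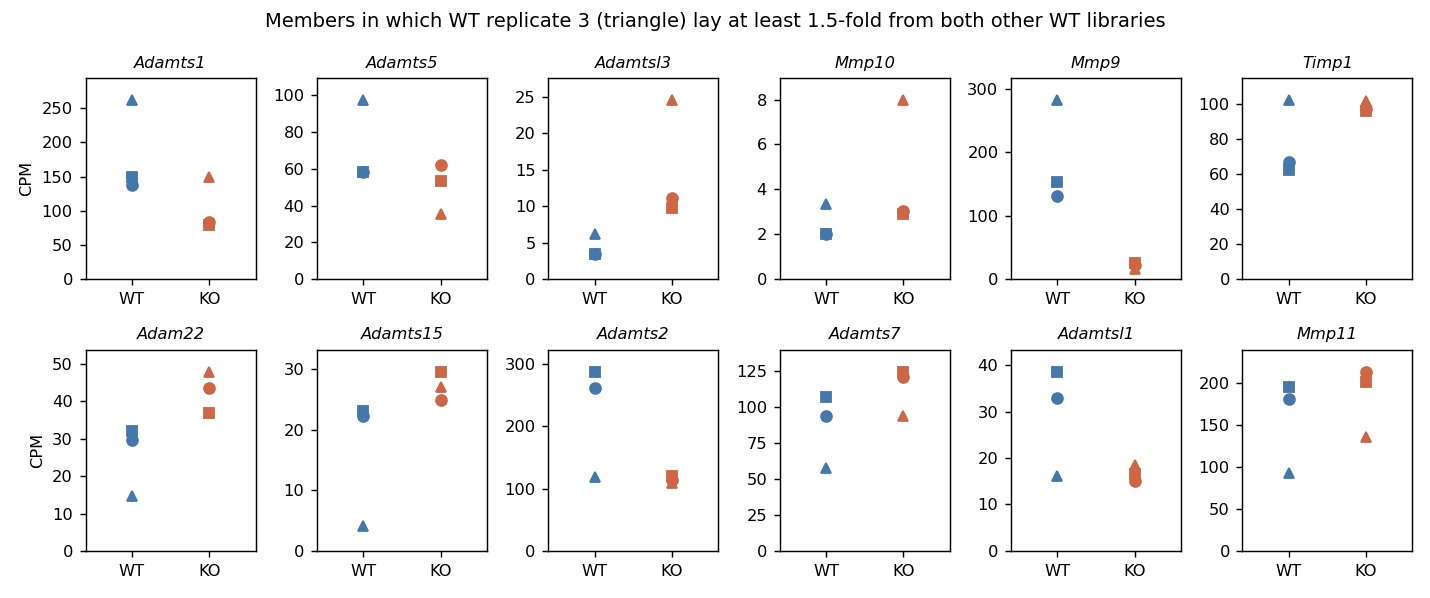
CPM by library, each panel with its own axis from 0, for the 12 genes in which WT replicate 3 lay at least 1.5-fold above (top row) or below (bottom row) both other WT libraries; circles, squares and triangles are replicates 1, 2 and 3. In Adamts2 and Timp1 the WT triangle sits at the level of the knockout points, while in Mmp9 it lies farther from them.

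Genes that activate, carry, inhibit or clear these proteases were read from a list of 22, of which 18 were tested. By edgeR no gene of the list was called higher and 4 fell (22.2%, against 16.1% of all tested genes), with a median log2 fold change of -0.18 over the list and 0.01 over all tested genes. At an unadjusted p under 0.05 with all libraries the number higher was also 0, in edgeR, the Wald test of DESeq2 and limma alike. By edgeR without knockout replicate 3 it was 2 at that level, and none was called. Without replicate 3 of both genotypes it was 4, and edgeR called 3 higher. Tspan5, a tetraspanin that escorts ADAM10, fell from 88.9, 91.9 and 86.7 CPM to 54.9, 55.3 and 46.6 CPM (-0.77 ± 0.10; edgeR adjusted p = 0.00247). Cd44, a hyaluronan receptor that tethers MMPs to the cell surface, fell from 648 ± 270 to 299 ± 20.4 CPM (SD, n = 3; edgeR adjusted p = 0.0253). Rhbdf1, an inactive rhomboid that guides ADAM17 to the surface, fell from 66.5 ± 8.95 to 49.3 ± 3.98 CPM (-0.43 ± 0.12; edgeR adjusted p = 0.0497), and the locus that Pcsk6, a proprotein convertase gene, shares with Snrpa1 fell by 0.84 ± 0.22 on the log2 scale. The furin gene, whose enzyme activates many ADAMs and membrane-type MMPs, and Reck, a membrane inhibitor of MMPs, were not called, with log2 fold changes of 0.09 ± 0.19 and 0.18 ± 0.31.

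Of 29 listed genes for proteins that these enzymes cut or shed, 22 were tested, and 3 rose and 7 fell (45.5%, against 16.1% of all tested genes). The median log2 fold change was -0.23 over the list and 0.01 over all tested genes. Areg, among those that rose, read at most 0.163 CPM in WT and so passed the filter through the knockout libraries. The 3 and the 45.5% include Areg, whose call is no support for them. The list was chosen with earlier results of these data known, so its share is not read as a result about these genes. App, whose product ADAM10 cuts, fell from 1738, 1899.7 and 1798 CPM to 1005, 1025 and 1103 CPM (-0.80 ± 0.10; edgeR adjusted p = 0.0028). Nrg1, a shed ERBB ligand, fell from 65.8, 72.5 and 106 CPM to 33.0, 29.3 and 22.3 CPM (-1.53 ± 0.21; edgeR adjusted p = 0.00371), and the locus of the prion protein gene Prnp, shared with Prnd, by 0.45 ± 0.09 on the log2 scale. Ereg, the epiregulin gene, rose from 7.32, 7.25 and 13.6 CPM to 21.8, 19.9 and 23.6 CPM (1.21 ± 0.25; edgeR adjusted p = 0.0169). Over both lists, 11 genes fell with all libraries; removing WT replicate 1 left 4 of that direction and WT replicate 2 left 5, while removing knockout replicate 1 left 3 and knockout replicate 2 left 5.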

How the data were processed

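Mouse fibroblast RNA was sequenced in 6 libraries, 3 per genotype. Per the file headers, the authors deposited estimated counts of fragments per locus and FPKM for each library, with replicates not pooled. Per the submitters' processing notes, TopHat2 2.1.1, SAMtools 1.5, deepTools and Cufflinks 2.2.1 were used with mm10; their roles, the annotation and the use of strand are not given in the sources used here. Low deposited estimated counts are mostly whole multiples of 1 step per library (88.9% to 89.5% of values, tolerance 0.05 of a step). They were rounded to whole numbers and used as deposited, and divided by the step as an alternative.

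Loci without a name (1317) and named loci with a HIDATA status (9) were left out. Genes were kept by filterByExpr (0.168 CPM in 3 libraries), scaled by TMM and tested in edgeR 4.0.16 (R 4.3.3) by the robust quasi-likelihood test, Benjamini-Hochberg adjusted over all 16787 genes at 0.05. Intervals are 95%. DESeq2 1.42.0 (Wald test), its size factors, library size only, counts divided by the step, no filter, a filter of 1 CPM, limma 3.58.1 on log2(FPKM + 1) and log2(FPKM + 0.1), leaving out each library in turn or replicate 3 of both genotypes, a block for the replicate number, and replicates 1 and 2 summed were the alternatives. On simulated data with 16787 genes for the comparison of genotypes, 26.9% of genes changed 1.5-fold, 65.7% changed 2-fold and 97.0% changed 4-fold were recovered, with 19 false calls. The simulation changed 67, 67 and 66 genes by these folds and drew its libraries independently. In the data 2705 genes were called and replicates 1 and 2 lay close, so these shares need not hold for them.

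The genes and lists were chosen with earlier results of these data known. Library values and tests were given for called genes of at least 1 CPM in their higher group, for the 4 TIMPs, for the 2 genes of highest mean FPKM in each class, and for the 4 called genes of smallest adjusted p in the partner and substrate lists. Other genes named with values, among them Mmp8, Mmp10, Adam17, Adam22 and Adamts9, were chosen after their values were seen, to complete a group. ADAMs were kept as 1 class. Positions were matched by symbol to GENCODE M21 for all 84 genes, and 53 had a RefSeq promoter window.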

Additional observations from a re-analysis of the deposited data

How the results depend on the processing

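Over 34 genes followed here, log2 fold changes under 12 alternatives other than leaving out 1 library kept direction and side of the threshold in 342 cases, lost the call in 25, gained one in 20 and changed sign in 6; with 1 library left out these numbers were 169, 24, 4 and 7. The changes of sign were all in genes not called on either side. With library size only and with replicates 1 and 2 summed, the log2 fold change was 0.0185 and 0.0168 for Adam10 (-0.08 with the settings of the report), 0.0495 and 0.0895 for Mmp16 (-0.05), and 0.052 and 0.050 for Mmp19 (-0.05). With 1 library left out it ran from -0.25 to 0.0273 for Adam10, -0.26 to 0.0410 for Mmp16, -0.20 to 0.0216 for Mmp19 and -0.0409 to 0.42 for Mmp11, which was under 0 without WT replicate 3. Of all genes, 1348 were higher and 1357 lower in edgeR; of the genes followed here 8 and 11; of the partner and substrate genes 3 and 11. Leaving out 1 library gave 605 to 1615 higher and 564 to 1727 lower genes, 6 to 11 and 5 to 13 of the genes followed here, and 0 to 4 and 3 to 13 of the partner and substrate genes; at an unadjusted p under 0.05 in edgeR, the partner and substrate genes higher were 4 without knockout replicate 1, 4 without knockout replicate 2 and 5 without WT replicate 2. With limma on log2(FPKM + 1), 588 genes were higher and 974 lower, 3 and 8 of the genes followed here, and 1 and 7 partner and substrate genes. With log2(FPKM + 0.1) the values were 608 and 1007, 3 and 8, and 2 and 7. With log2(FPKM + 1) and no filter they were 527 and 655, 5 and 9, and 0 and 5 (5 higher at an unadjusted p under 0.05 in limma). With replicate 3 of both genotypes left out, edgeR gave 3499 and 3494, 17 and 20, and 10 and 18. With replicates 1 and 2 summed it gave 280 and 198, 5 and 3, and 0 and 1 (4 higher at an unadjusted p under 0.05); this fit has fewer samples. The Wald test of DESeq2 gave 1743 and 1896, 10 and 16, and 5 and 14. Scaling by library size only gave 1968 and 1026, 10 and 11, and 5 and 9; 65.7% of calls were then higher against 49.8%, and the median over all genes went from 0.01 to 0.10 on the log2 scale. Apart from leaving samples out, the cause of these shifts was not tested. Same-numbered libraries deviated together only weakly (correlations 0.0486, 0.149 and 0.111 across genes), so the numbers were not taken as pairs; with the replicate number as a block, 1138 genes were higher and 1218 lower, and 8 and 12 of those followed here, with adjusted p of 0.0136 for Mmp2, 0.00672 for Adamts1, 0.0508 for Mmp15 and 0.0524 for Mmp25. The number of libraries, 3 a genotype, limits what could be called. In the simulation 26.9% of 1.5-fold changes were recovered. It had fewer changed genes than were called here and independent libraries, so that share need not hold for these data. Below about 1 CPM, as in Mmp1b, Mmp8 and Timp4, few fragments stand behind a value.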
